A study of Mus musculus with 2 samples.

Results

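The enzymes that break glucose down to pyruvate and lactate, with the transporters that carry sugar and lactate across the cell membrane, were followed at the RNA level in the liver of mouse embryos at embryonic day 12.5. The set was defined by gene name and function. It comprised 33 genes of the 43346 mouse gene identifiers in the tables, and all 33 were found by their symbols. The data are total RNA sequencing of 2 libraries that form 1 group. Replicate 1 pooled the livers of 120 embryos and replicate 2 those of 88 others, all of strain B6NCrl, described as healthy, with males and females mixed. The labels give no mutation or treatment, so no conditions can be compared, and differences from embryo to embryo are averaged within each pool. The libraries held 37.6 M and 34.7 M expected counts. Levels are in TPM, an abundance scaled by transcript length and library depth, and are given as mean ± SD over both libraries (n = 2) or as the values of replicate 1 and replicate 2 in that order.

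Glycolysis turns glucose into pyruvate in the cytosol and yields ATP without oxygen, and lactate dehydrogenase then regenerates the NAD+ that the pathway consumes. Most steps can be run by several isozymes, encoded by separate genes or by alternative exons, that differ in kinetics and in the tissues that use them. The adult hepatocyte is known for the L type of pyruvate kinase and the transporter GLUT2. The maturing red cell, which loses its mitochondria, lives on glycolysis and uses the R type of pyruvate kinase. At this age the liver holds both hepatoblasts and a large population of erythroid precursors.

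Both cell types were present by their markers. The 4 erythroid markers Klf1, Alas2, Epor and Slc4a1 summed to 2076 and 2118 TPM, and the 5 hepatoblast markers Afp, Alb, Apoa2, Hnf4a and Ttr to 8720 and 8443 TPM, with all 9 of these genes detected in both libraries. Macrophage markers summed to 71.8 and 72.7 TPM and endothelial markers to 44.9 and 42.4 TPM, each with 3 of 3 detected. The 3 heart markers, all detected, summed to 22.0 and 23.5 TPM, most of it from Myl7. Neural markers (0 of 4 detected) summed to 1.46 and 1.43 TPM, and testis germ cell markers (0 of 3 detected) to 0.340 and 0.480 TPM, with Tnp1 at 0 reads. Skeletal muscle markers (1 of 5 detected) summed to 3.61 and 11.1 TPM and were thus higher in replicate 2. In such bulk tissue, fewer cells of a type and less RNA per cell cannot be told apart, and no value below can be assigned to a cell type.

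Pyruvate kinase is the step at which alternative exons and alternative first exons both set the product, so the sequences that separate its forms are shown here. The Pkm gene contains a pair of mutually exclusive exons of 167 nt each, M1 at chr9:59675029-59675195 and M2 at chr9:59675568-59675734 (mm10, + strand), which encode the stretch that differs between the M1 and M2 enzymes. In the following, read 5′ to 3′ from the GENCODE M21 transcripts, capitals mark the 64 positions at which the exons differ; they share 61.7% of their bases.
Pkm exon M1: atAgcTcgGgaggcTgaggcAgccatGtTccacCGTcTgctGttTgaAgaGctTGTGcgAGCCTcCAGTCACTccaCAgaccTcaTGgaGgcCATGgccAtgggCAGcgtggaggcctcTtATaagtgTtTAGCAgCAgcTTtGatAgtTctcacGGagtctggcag
Pkm exon M2: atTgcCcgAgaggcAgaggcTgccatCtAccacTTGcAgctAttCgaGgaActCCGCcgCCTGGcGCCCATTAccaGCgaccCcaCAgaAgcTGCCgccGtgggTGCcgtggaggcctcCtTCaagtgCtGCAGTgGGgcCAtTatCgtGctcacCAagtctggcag

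The Pklr gene makes its R type from a distal first exon and its L type from a proximal first exon that starts 430 bp further along. The coding part of the distal exon (chr3:89136183-89136282, mm10, + strand, GENCODE M21) gives the R enzyme its own amino end and is shown with the start codon in capitals. The coding part of the proximal exon is only 7 nt long.
Pklr first coding exon R: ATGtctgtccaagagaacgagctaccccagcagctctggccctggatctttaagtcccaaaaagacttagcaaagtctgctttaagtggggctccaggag

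The bases just before each first exon are shown because the types are read from separate promoters (RefSeq promoter table, GRCm38.p6, + strand; R at chr3:89135892-89136141 and L at chr3:89136373-89136571). Capitals mark AGATAA, a form that GATA factors bind, in the R promoter, and in the L promoter a carbohydrate response form (CACNNG and CNNGTG set 5 bases apart) followed by an HNF1 form (GTTA and TTAAC set 4 bases apart).
Pklr R promoter: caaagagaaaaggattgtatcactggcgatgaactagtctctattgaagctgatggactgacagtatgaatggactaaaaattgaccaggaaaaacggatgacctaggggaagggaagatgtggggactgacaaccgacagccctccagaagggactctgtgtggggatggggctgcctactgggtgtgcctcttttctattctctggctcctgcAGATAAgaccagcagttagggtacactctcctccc
Pklr L promoter: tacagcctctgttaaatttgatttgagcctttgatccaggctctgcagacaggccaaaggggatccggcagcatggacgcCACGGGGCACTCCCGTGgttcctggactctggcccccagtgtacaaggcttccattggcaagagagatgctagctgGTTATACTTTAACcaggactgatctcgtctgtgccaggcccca

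The AGATAA match ended 30 bp before the distal exon, the carbohydrate response match 103 bp and the HNF1 match 31 bp before the proximal exon, and none of these matches overlapped another. The search covered both strands of 32851 promoters of 300 bases in the RefSeq table, with chromosome 18 left out. Among these promoters AGATAA occurred in 11.2%, the other GATA form TGATAA in 9.05%, the carbohydrate response form in 0.496% and the HNF1 form in 0.189%. The last 2 forms occurred at Pklr alone among the 46 promoters listed for 31 of the 33 genes. Each GATA form lay in 10.9% of these 46 promoters. The core of the hypoxia response element, ACGTG, lay in 18 of these 46 promoters, or 39.1%, against 19.6% of all promoters, and the CACCC form CCNCNCCC lay in 33, or 71.7%, against 49.5%. The ACGTG promoters belonged to 16 genes, among them Ldha, Pgk1, Hk1, Slc2a1 and Gapdh. A match of letters is a description of the sequence and not a site shown to be bound, and base composition was not matched.

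Every step of glycolysis had at least 1 detected gene. Among the reported genes, the leading one held at least 95% of the TPM in 5 of the 11 steps with several isozymes (aldolase, phosphoglycerate kinase, phosphoglycerate mutase, enolase and lactate dehydrogenase) and 52.9% to 86.1% in the other 6. Of the 33 genes, 30 were detected, which means that both libraries gave TPM of at least 1, a level reached by 29.6% of all mouse gene identifiers, and 14 had TPM of at least 100 in both, a level reached by 2.84% of them. The median of the 33 genes was 59.7 TPM, beside 1.86 TPM over the 23500 mouse genes with any TPM. Over detected genes only, the median was 79.1 TPM for the 30 genes of the set and 12.7 TPM for all 12841 detected genes. Together they held 0.805% and 0.762% of all mouse TPM, or 1.1% and 1.05% once the globin genes, at 27.0% and 27.7% of mouse TPM, were set aside. The genes Ldha, Gapdh, Eno1, Tpi1 and Aldoa held 68.0% and 67.4% of the sum over the 33.

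**Figure D1:**
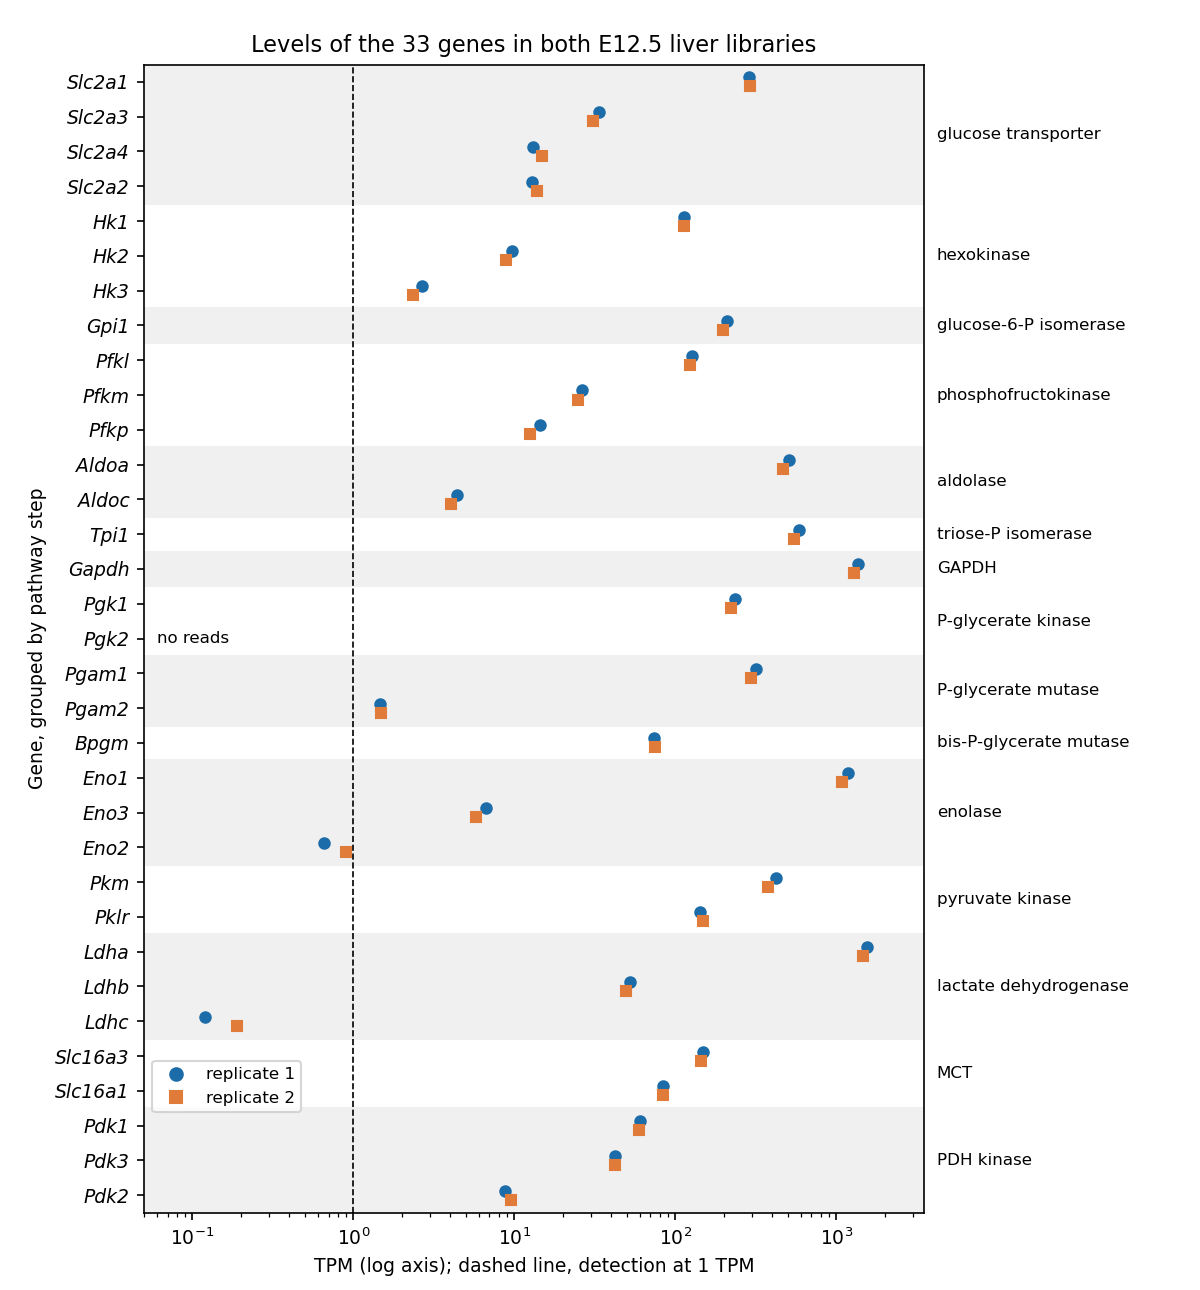
TPM of the 33 genes in replicate 1 (circles) and replicate 2 (squares) on a log axis, grouped by pathway step from glucose uptake to pyruvate dehydrogenase kinase, with the detection level of 1 TPM dashed. Slc2a1, Hk1, Pgam1, Eno1 and Ldha lie far to the right of their isozymes, Ldha is the highest at 1555 and 1456 TPM, and Eno2, Ldhc and Pgk2 stay below the detection level.

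Most glucose transporter RNA was from Slc2a1, which encodes GLUT1, the high-affinity carrier of red cells and many embryonic tissues (ENSMUSG00000028645.6, chr4:119108711-119137983, + strand). It had 288 and 290 TPM, 82.9 ± 0.0469% of the TPM of the 4 glucose transporter genes in the set. Slc2a3, the high-affinity carrier GLUT3, followed at 33.6 and 30.8 TPM, so that Slc2a1 was 8.99 ± 0.600-fold higher. Slc2a2, which encodes the hepatocyte and beta cell carrier GLUT2, had 12.8 and 13.9 TPM. The insulin-regulated carrier GLUT4 of muscle and fat, encoded by Slc2a4, had 12.96 and 14.76 TPM. Slc2a4 was above Slc2a2 within each library, by 1.01-fold and 1.06-fold, less than either gene differed between the libraries, and they held 3.98 ± 0.353% and 3.83 ± 0.212% of the transporter TPM.

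Hexokinase traps glucose in the cell as glucose 6-phosphate. Among the hexokinase genes reported, most RNA came from Hk1 (ENSMUSG00000037012.14, chr10:62268855-62379908, - strand). This is the broadly expressed form and also the main hexokinase of red cells. Hk1 had 113 TPM in both libraries and 86.1 ± 0.239% of the TPM of the 4 hexokinase genes reported. Hk2, the insulin-responsive form of muscle, had 9.68 and 8.81 TPM, which put Hk1 12.2 ± 0.864-fold above it, and a 594-nt model held nearly as much of the Hk2 TPM as its protein-coding models, which alone gave 5.08 and 4.80 TPM. Hkdc1, a hexokinase relative outside the set, had 6.05 and 6.80 TPM and stood above Hk3, the form of myeloid cells, at 2.65 and 2.36 TPM. Hk1 thus far exceeded the 3 other genes, which differed from one another by less.

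The Hk1 RNA was assigned to transcript models with several different first exons, and reads at the first exons themselves were not examined. Of the 20 annotated Hk1 transcripts, 4 held over 5% of the gene's TPM in the authors' isoform percentages. The 4278-nt transcript that begins at chr10:62340013-62340542 held 46.24% and 44.84%, and the 3639-nt transcript that begins at chr10:62358336-62358362 held 23.79% and 23.68%. An 896-nt model held 18.17% and 17.68% on only 513 and 465 reads. A 2916-nt model held 10.91% and 11.75% on 1090 and 1092 reads. The transcripts whose first exons lie furthest upstream, between 62374704 and 62379908, had 0 reads in both libraries.

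Gpi1, the only gene for glucose 6-phosphate isomerase, had 209 and 196 TPM (ENSMUSG00000036427.4, chr7:34201330-34230336, - strand). Phosphofructokinase, the committed step of the pathway, was led by the liver form Pfkl at 126 and 123 TPM (ENSMUSG00000020277.9, chr10:77986947-78010083, - strand). Pfkl held 76.2 ± 0.813% of the TPM of this step. The muscle form Pfkm had 26.1 and 24.8 TPM, 4.90 ± 0.105-fold less than Pfkl. The platelet form Pfkp had 14.4 and 12.4 TPM, but the annotation places 748 nt of Pitrm1, a gene with 11916 and 10860 reads, on the opposite strand over Pfkp, which had 1282 and 1011 reads. As strand is not given in the labels, reads in that stretch cannot be told apart.

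Aldolase splits the 6-carbon sugar. Aldoa, the form of muscle and red cells, had 510 and 468 TPM (ENSMUSG00000030695.9, chr7:126795234-126800751, - strand). The brain form Aldoc had 4.42 and 4.03 TPM, and Aldoa exceeded it 116 ± 0.528-fold. These are the aldolase genes of the set, and their shares are of these 2 genes only. Tpi1, the single gene for triosephosphate isomerase, stood above Aldoa at 585 and 545 TPM (ENSMUSG00000023456.10, chr6:124810586-124814296, - strand).

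Gapdh, which oxidizes glyceraldehyde 3-phosphate, had 1361 and 1290 TPM (ENSMUSG00000057666.14, chr6:125161715-125166467, - strand). This level depends on a short model: 60.37% and 60.51% of the Gapdh TPM was assigned to a 483-nt processed transcript, and the protein-coding models alone gave 526 and 496 TPM. With those, Gapdh would stand below Tpi1 at 579 and 538 TPM from its own protein-coding models. The tables also held 162 near-identical copies of Gapdh, of which 130 had reads, and together these had 6.75% and 7.05% as many reads as Gapdh.

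Pgk1, the X-linked phosphoglycerate kinase of somatic cells, had 236 and 222 TPM (ENSMUSG00000062070.8, chrX:106187100-106203699, + strand). Its testis counterpart Pgk2 had 0 reads in both libraries, which allows up to 0.0638 and 0.0690 TPM at 3 reads. Pgk1-rs7, a processed copy with 100% identity to Pgk1, carried 10.6% and 9.62% as many reads, and the split of reads between this pair is uncertain. Pgam1, the non-muscle phosphoglycerate mutase, had 315 and 296 TPM (ENSMUSG00000011752.6, chr19:41911923-41918660, + strand) and exceeded the muscle form Pgam2, at 1.46 and 1.48 TPM from 34 and 32 reads, by 208 ± 11.4-fold. Both steps were thus held almost wholly by the somatic or non-muscle gene, at 100% and 99.5% of the TPM of the step.

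Bpgm makes 2,3-bisphosphoglycerate, the red cell metabolite that lowers the oxygen affinity of hemoglobin. It had 74.12 and 75.05 TPM (ENSMUSG00000038871.5, chr6:34476207-34505613, + strand), above Ldhb and below Slc16a1. Its product can be dephosphorylated by the enzyme of Minpp1, which had 104 and 101 TPM.

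Enolase RNA was almost purely of the alpha type. Eno1 had 1178 and 1086 TPM (ENSMUSG00000063524.9, chr4:150236721-150248879, + strand), 99.4 ± 0.00113% of the enolase TPM and 182 ± 6.68-fold above the muscle form Eno3 at 6.64 and 5.81 TPM. The neuronal form Eno2 had 0.660 and 0.900 TPM from 39 and 32 reads, and only 26.2% and 27.8% of that came from protein-coding models. The near-identical copies of Eno1 carried 1.68% and 1.74% as many reads as Eno1, too few to alter its place among the 33 genes.

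**Figure D2:**
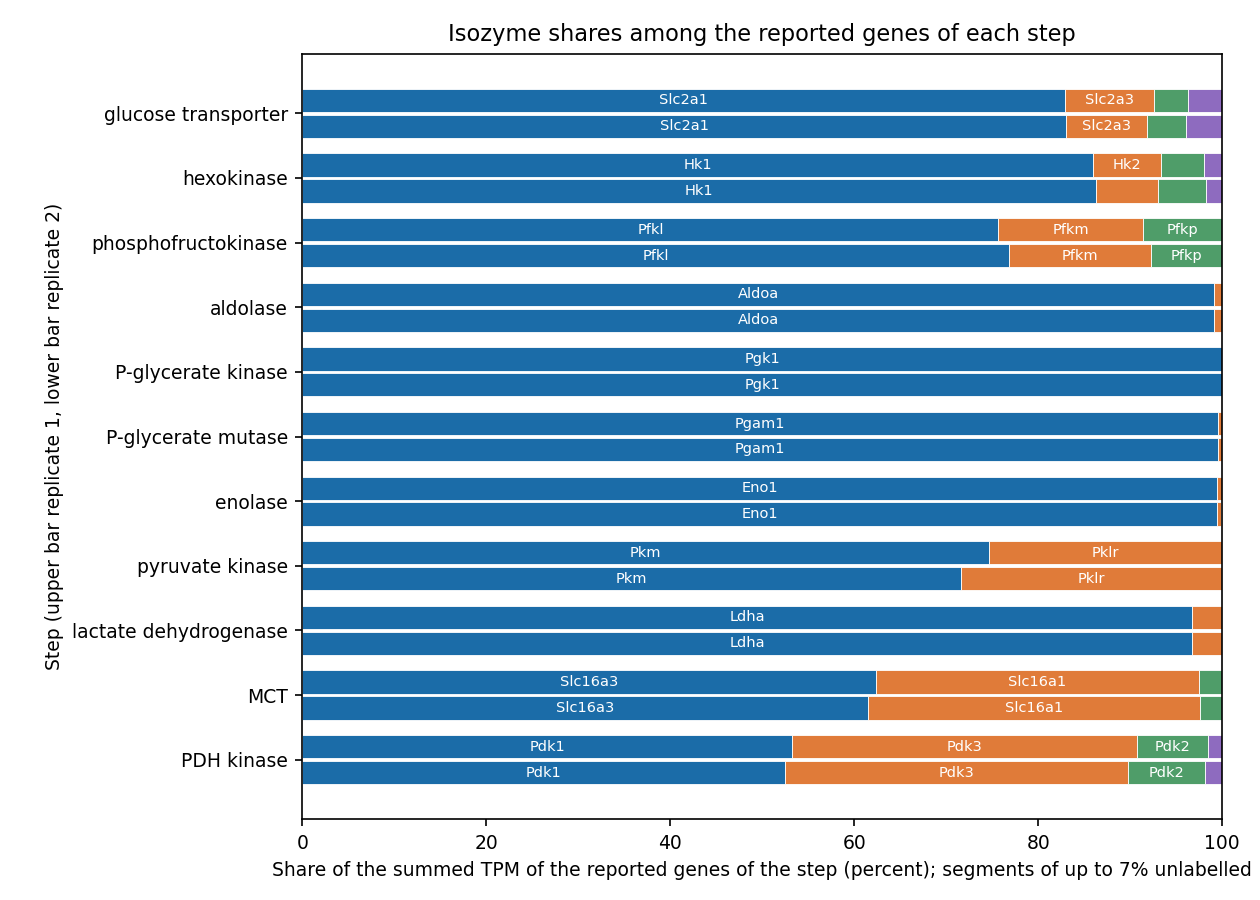
Share of the summed TPM of each of the 11 steps with several isozyme genes, among the genes reported here, in percent, with replicate 1 above replicate 2 and segments ordered by mean share. The leading gene held 99.5% of phosphoglycerate mutase and 96.7% of lactate dehydrogenase but 73.1% of pyruvate kinase, 62.0% of the monocarboxylate transporters (MCT) and 52.9% of the pyruvate dehydrogenase (PDH) kinases.

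Pyruvate kinase, which makes pyruvate and ATP, was the only glycolytic enzyme step at which 2 genes both had TPM over 100. Pkm, the gene of the M forms, had 419 and 376 TPM (ENSMUSG00000032294.12, chr9:59656368-59679375, + strand). Pklr, the gene of the red cell and liver forms, had 142 and 149 TPM (ENSMUSG00000041237.8, chr3:89136142-89146784, + strand). Pkm thus held 74.7% and 71.6% of the TPM of this step and was 2.73 ± 0.304-fold higher than Pklr.

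Pkm RNA was nearly all of the M2 type, the form of embryonic and dividing cells. The transcript with the M2 exon shown above had 405 and 362 TPM, or 96.59% and 96.42% of the gene. The transcript with the M1 exon, the form of adult muscle, heart and brain, had 14.3 and 13.4 TPM, or 3.41% and 3.58%. These shares rested on 29739 and 24614 reads assigned to M2 and 1049 and 914 assigned to M1. With every read taken as independent, the exact 95% interval of the M2 read share was 96.4% to 96.8% in replicate 1. In replicate 2 it was 96.2% to 96.6%. Reads in sequence shared by both models were divided between them by estimation. The intervals are therefore too narrow even for counting error, and they cover no other error. The M1 model is listed at 2432 nt in the deposited tables and at 2041 nt in GENCODE M21, where its ends differ from those of the M2 model, so some reads outside the exon pair may also enter the split.

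Pklr RNA was mostly of the R type, known from red cells, with a smaller L type part, known from hepatocytes. Transcripts from the distal first exon had 99.3 and 107 TPM, or 69.8% and 71.4% of the gene, and those from the proximal first exon 43.0 and 42.6 TPM, or 30.2% and 28.6%. By transcript, the 2787-nt R transcript had an isoform percentage of 53.26 and 55.16, and the 2902-nt L transcript had 27.91 and 26.46. A 345-nt processed transcript from the distal exon held a further 16.54% and 16.28% on only 182 and 174 reads. The R share by reads was 65.1% (64.2% to 66.1%) and 67.1% (66.2% to 68.0%), with exact 95% intervals that take every read as independent. Reads in sequence shared by the R and L models were again divided by estimation, so these intervals are also too narrow for counting error. The long R and L models also differ in their last exon, which is 1128 nt in R and 1318 nt in L, so reads in that extension count towards L whatever their first exon. The R type was therefore the larger part of Pklr by TPM and by reads, with a share that moved by a few percentage points with the measure.

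Across both genes, M2 held 70.6 ± 2.20% of all pyruvate kinase TPM, R 19.0 ± 1.86%, L 7.88 ± 0.333% and M1 2.55 ± 0.0129%. The form that adult hepatocytes use was below M2 and R and above M1 in both libraries.

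**Figure D3:**
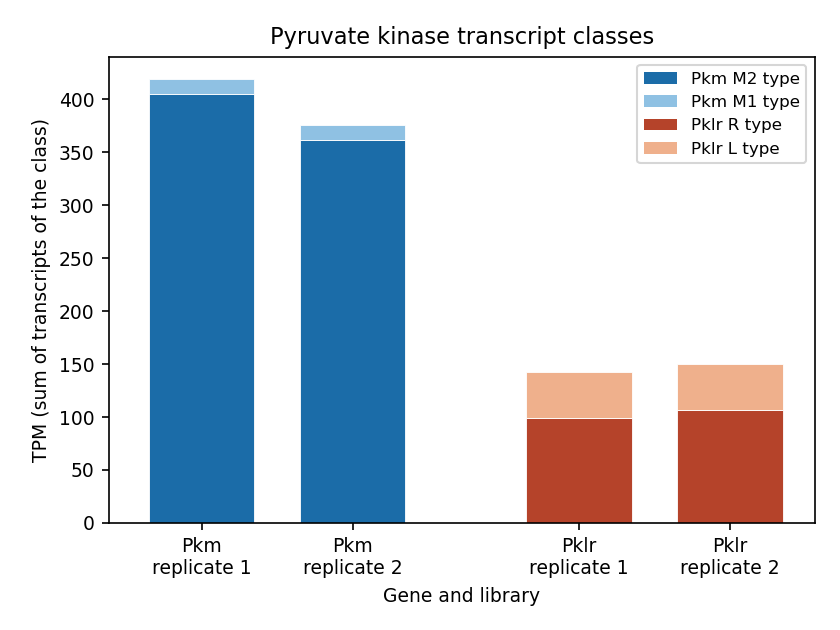
TPM of the pyruvate kinase transcript classes in each library, stacked by class, from a zero baseline. The Pkm bars are almost filled by the M2 type (405 and 362 TPM), and the Pklr bars hold more R type (99.3 and 107 TPM) than L type (43.0 and 42.6 TPM).

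Lactate dehydrogenase RNA was mostly that of the A subunit. Ldha, whose product favours pyruvate to lactate conversion, was the most abundant of the 33 genes at 1555 and 1456 TPM (ENSMUSG00000063229.10, chr7:46841475-46855627, + strand) and ranked 43 among all mouse genes. Ldhb, the heart-type subunit, had 52.0 and 49.4 TPM, and Ldha was 29.7 ± 0.277-fold higher. The testis form Ldhc had 0.120 and 0.190 TPM from 5 and 7 reads, beside testis germ cell markers that were not detected.

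Lactate leaves cells through monocarboxylate transporters. Slc16a3, which encodes the lactate exporter MCT4, had 148 and 144 TPM (ENSMUSG00000025161.12, chr11:120948480-120960868, + strand), and Slc16a1, which encodes the widespread carrier MCT1, had 83.3 and 84.1 TPM (ENSMUSG00000032902.1, chr3:104638668-104658462, + strand). By TPM Slc16a3 was 1.74 ± 0.0480-fold higher, with 62.0 ± 0.584% against 35.6 ± 0.646%. By reads, not scaled by length, Slc16a1 had the larger share at 53.3% and 54.4%, against 44.6% and 43.6% for Slc16a3; its only model is 4426 nt long and the leading Slc16a3 model 2272 nt. Bsg, the gene of the chaperone that brings both carriers to the membrane, was higher than either at 910 and 875 TPM.

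Pyruvate dehydrogenase kinases switch off the entry of pyruvate into the mitochondrial cycle. Pdk1 had 60.0 and 59.4 TPM (ENSMUSG00000006494.7, chr2:71873224-71903858, + strand), and Pdk3 had 42.1 TPM in both libraries (ENSMUSG00000035232.8, chrX:93764607-93832201, - strand). Pdk2, the most widespread kinase in adult tissues, was lower at 8.70 and 9.51 TPM, and Pdk4, the fasting-induced kinase outside the set, had 1.78 and 2.06 TPM. The order of the leading pair depends on the transcript models. Only 40.0% and 38.4% of the Pdk1 TPM came from protein-coding models, and on those alone Pdk1 had 23.97 and 22.82 TPM, below Pdk3 at 41.9 and 42.0 TPM.

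From the highest to the lowest mean, the genes ran Ldha, Gapdh, Eno1, Tpi1, Aldoa, Pkm, Pgam1, Slc2a1, Pgk1, Gpi1, Slc16a3, Pklr, Pfkl, Hk1, Slc16a1, Bpgm, Pdk1, Ldhb, Pdk3, Slc2a3, Pfkm, Slc2a4, Pfkp, Slc2a2, Hk2, Pdk2, Eno3, Aldoc, Hk3, Pgam2, Eno2, Ldhc and Pgk2. Neighbours whose library values overlapped, and which therefore have no order here, were Slc16a3 with Pklr, Slc2a4 with Pfkp, Pfkp with Slc2a2, and Hk2 with Pdk2. Every other neighbouring pair kept its order in both libraries, with only 2 values on each side. These places use the TPM of all models of a gene. On protein-coding models alone, several places would change. Gapdh, at 526 and 496 TPM, would fall below Eno1 and Tpi1. Pdk1, at 23.97 and 22.82 TPM, would fall below Ldhb, Pdk3, Slc2a3 and Pfkm. Hk2, at 5.08 and 4.80 TPM, would fall below Pdk2 and Eno3. Pklr, at 118.09 and 124.24 TPM, would overlap with Pfkl at 124.92 and 122.43 TPM.

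Genes around the pathway were read from lists named by function. Of the pyruvate dehydrogenase complex and pyruvate carrier list, 11 of 11 were detected and the median was 40.8 TPM, from the carrier subunit gene Mpc2 at 167 ± 7.76 TPM down to Pdk4 at 1.92 ± 0.198 TPM. The pentose phosphate list had 7 of 7 detected and a median of 78.1 TPM, from Taldo1, which encodes transaldolase, at 429 ± 7.83 TPM down to the isomerase gene Rpia at 4.18 ± 0.368 TPM. The list of regulators and side branches had 8 of 9 detected and a median of 7.0 TPM, from the phosphoglycolate phosphatase gene Pgp at 186 ± 0.587 TPM down to Tigar, which encodes a fructose bisphosphatase, at 0.710 ± 0.0566 TPM. Other sugar and monocarboxylate transporters, their chaperones and Txnip were mostly below the detection level, with 5 of 14 detected and a median of 0.775 TPM, from Bsg at 892 ± 24.3 TPM to the intestinal sodium-glucose carrier Slc5a1 at 0 reads. Of 3 other isozyme genes outside the set 1 was detected, Hkdc1 at 6.42 ± 0.530 TPM, and the lowest was the sperm form Gapdhs at 0.0600 TPM in both libraries.

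The pools differed little in these genes, and most of the glycolytic enzymes were slightly higher in replicate 1. The median log2 ratio of replicate 1 over replicate 2, on the TPM + 0.1 scale, was 0.08 over the 30 detected genes and 0.01 over all 12841 detected genes, whose quartiles were -0.08 and 0.09. A total of 20 of the 30 ratios were positive, or 66.7%, against 52.4% of all detected genes. At least 1.1-fold higher in replicate 1 were 4 genes, Pkm, Pfkp, Eno3 and Hk3, a difference shown by 15.9% of all detected genes in that direction. In replicate 2, only Slc2a4 was at least 1.1-fold higher, against 15.6% of all detected genes. Neither count, out of 30, exceeds the share over all genes, and with 1 library per pool there is no replicate check of any of these differences. Centring on the spike-ins shifted all detected genes by 0.12 towards replicate 1, so the ratios given here are relative to the bulk of the genes.

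Pkm and Pklr differed in opposite directions on the TPM scale, although with spike-in centring both were higher in replicate 1, Pklr with a log2 ratio of 0.05 and Pkm of 0.27. The Pkm ratio of replicate 1 over replicate 2 was 1.12 with an exact 95% counting interval of 1.1 to 1.14, and Pklr was 1.05-fold higher in replicate 2, with an interval of 1.02 to 1.08. Of the abundant enzymes, Eno1 had a ratio of 1.09 (1.07 to 1.1), Aldoa of 1.09 (1.07 to 1.11), Ldha of 1.07 (1.06 to 1.08), Tpi1 of 1.07 (1.05 to 1.09) and Gapdh of 1.06 (1.04 to 1.07). Gpi1, Pgk1 and Pgam1 each had 1.07 (1.04 to 1.09). Some genes at different steps were closer to 1, with Slc2a1 at 0.995 (0.976 to 1.01), Hk1 at 0.994 (0.968 to 1.02) and Slc16a1 at 0.990 (0.964 to 1.02). Pfkl at 1.02 (0.999 to 1.05), Bpgm at 0.988 (0.948 to 1.03) and Pdk3 at 1.000 (0.946 to 1.06) were also among them.

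Slc2a4 was 1.14-fold higher in replicate 2 (1.04 to 1.25). The other transporter of similar level, Slc2a2, was 1.09-fold higher there, with an interval of 0.992 to 1.19, and Slc2a3 had a ratio of 1.09 (1.04 to 1.15) towards replicate 1. The skeletal muscle markers were higher in the same library, Myog at 0.930 and 4.25 TPM and Acta1 at 1.74 and 4.25 TPM, while Pgam2, the muscle phosphoglycerate mutase, was level and Eno3, the muscle enolase, was 1.14-fold higher in replicate 1 with an interval of 0.952 to 1.37 that includes 1. The part of muscle RNA in the Slc2a4 difference was not tested. Pfkp had the largest ratio of the 30 genes, 1.16 (1.07 to 1.26), with the overlap with Pitrm1 given above, and the intervals of Hk3, at 0.919 to 1.37, and of Eno3 include 1.

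**Figure D4:**
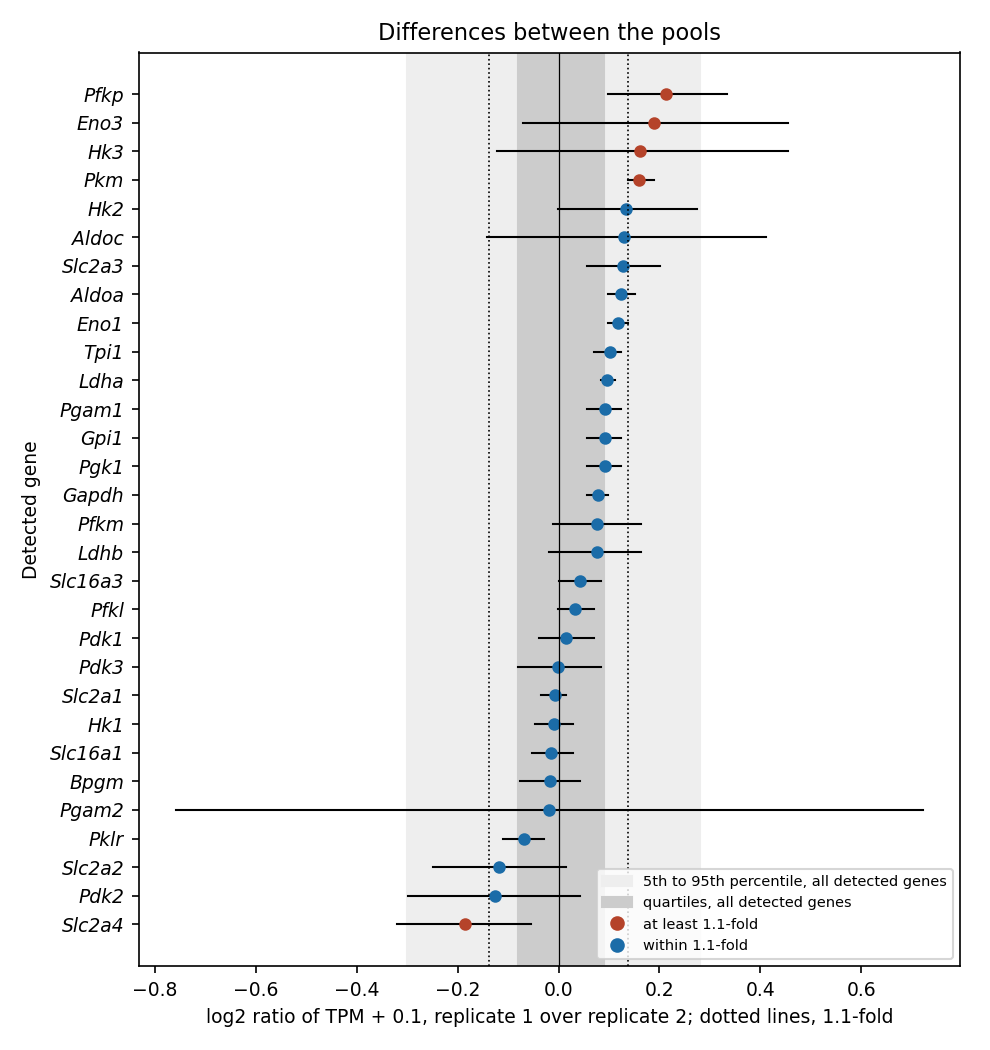
Log2 ratio of TPM + 0.1, replicate 1 over replicate 2, for the 30 detected genes, with exact 95% counting intervals of the read ratio as lines; grey bands give the quartiles and the 5th to 95th percentiles (-0.30 and 0.28) of all 12841 detected genes. All 30 points lie within the outer band, Pfkp is furthest right at 0.21 and Slc2a4 furthest left at -0.19.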

How the data were processed

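Total RNA of E12.5 mouse liver was measured in 2 libraries, made from 10 ng of mirVana-extracted RNA longer than 200 with spike-ins, per the labels' protocols. The labels call them biological replicates. The authors deposited 1 gene table and 1 transcript table per library, on mm10 with GENCODE M4 per the file headers; the tools that aligned and quantified reads are not named in the sources used here. The deposited expected counts are estimated reads per gene, not normalized, and were rounded for intervals. The deposited TPM values, made by the authors, are scaled by length and depth over all entries, spike-ins included. The deposited FPKM values were not used for results. The isoform percent is the authors' share of a gene's TPM. Posterior mean TPM, also deposited, served as an alternative.

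Symbols matched 42462 of 43346 identifiers, and coordinates are from GENCODE M21 (same assembly, 1-based). Copies were transcripts with at least 90% identity to a protein-coding transcript of one of the 33 genes over at least 50% of the copy. Intervals are exact 95% Clopper-Pearson, and a floor of 3 reads equals 0.0953 and 0.103 TPM at an effective length of 1 kb. Without molecular identifiers PCR copies cannot be told from independent molecules, so intervals and floor cover counting error only. For the Pkm and Pklr transcript classes the intervals fall short of even that, as given above. The log2 ratios and 1.1-fold counts of the pools used TPM + 0.1, which understates ratios of low genes. Ratios printed with intervals are of TPM without this addition. All 33 genes are named, with both library values at TPM of at least 10 and for the leading isozyme of each step; from the lists of related genes, the highest and lowest and any above a gene of its step are named, with a few others (Minpp1 and the markers Myog and Acta1) chosen after their values were seen. Some genes of the lists are not reported here and were left out of shares and sums. The genes and lists were chosen with earlier results of these data known. With 1 group, no p-value was computed. Scripts ran in Python 3.11.15 with scipy 1.17.1, and scaling factors came from edgeR 4.0.16 and DESeq2 1.42.0 in R 4.3.3; the interval code was tested on simulated data.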

Additional observations from a re-analysis of the deposited data

How the results depend on the processing

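Across 6 alternatives, the leading gene stayed the same in 11 of 11 steps with posterior mean TPM, with near-identical copies added and without either replicate. It changed in 1 step with expected counts in place of TPM, where Slc16a1 (53.9%) passed Slc16a3, and in 1 with protein-coding transcripts only, where Pdk3 (55.9%) passed Pdk1. For gene shares and levels, the second alternative was chosen after seeing the data; for the Pkm and Pklr transcript classes it was planned. Expected counts moved leading shares by more than 1 SD, to 86.7% for Hk1, 80.7% for Pfkl, 98.9% for Aldoa, 99.8% for Pgam1, 99.6% for Eno1, 97.3% for Ldha, 80.6% for Slc2a1, 44.1% for Slc16a3 and 63.9% for Pdk1, and the Pklr R share to 66.1%; counts are not scaled by length. Posterior mean TPM gave 85.7% for Hk1, 99.0% for Aldoa, 99.2% for Eno1 and 82.5% for Slc2a1. Protein-coding transcripts only gave 89.5% for Hk1, 99.2% for Aldoa, 77.7% for Pfkl, 76.6% for Pkm, 83.8% for Slc2a1, 31.2% for Pdk1 and 65.2% for the Pklr R share. The Pkm M2 share was 96.5% under the 3 other measures. Both deposited Pkm models are protein-coding and 2432 nt long, so expected counts and protein-coding transcripts only could hardly change it.

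The number detected was 27 to 31 under the alternatives. The median level of the 33 genes was 86.8 TPM rescaled without spike-ins and globins, 79.1 over detected genes only and 50.7 from protein-coding transcripts. Centring the pool ratios on spike-ins shifted all detected genes by about 0.12, from a median of 0.01 to 0.12, and the 30 genes to 0.19; relative to all genes they stayed at 0.07. It put 19 genes over 1.1-fold, all higher in replicate 1, against 45.3% of all detected genes, and none higher in replicate 2; Slc2a4 stayed below 0 at a log2 ratio of -0.07. The cause of the spike-in shift was not tested. Leaving out a replicate is not possible for a ratio of the pools. Left-out replicates gave shares of 86.0% to 86.3% for Hk1, 71.6% to 74.7% for Pkm and 69.8% to 71.4% for Pklr R. No paired analysis was possible because there is only 1 group. Depth limits Pgk2, Ldhc, Eno2 and Pgam2, which rest on 0 to 39 reads per library.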
